A study of Mus musculus with 4 samples.

Results

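Fibronectin and 7 matricellular genes were followed through the knockdown of *Mettl14* in cultured mouse vascular smooth muscle cells (VSMCs). The genes, chosen by name, were *Fn1*, *Tnc*, *Thbs1*, *Thbs2*, *Thbs3*, *Sparc*, *Postn* and *Tgfbi*, which are 8 of the 48587 genes in the count table. The cells were primary VSMCs that grew out of the descending aorta of adult wild-type C57BL/6J mice after the adventitia had been digested and the endothelium scraped off, and female and male mice were used in the study. All libraries came from cells infected with a lentivirus, which carried either shCTR, a nontargeting hairpin against a plant microRNA, or shMettl14, a single hairpin sequence against the m6A methyltransferase subunit *Mettl14*. Each group had 2 libraries, which carry the letters A and B, and the sources used here do not say whether a letter marks a shared culture or whether the libraries of a group came from separate animals, so that the p-values below measure only the spread between these libraries. Poly-A RNA was sequenced to between 114343653 and 124815868 counts per library, and the 3 counts that a library with none could still hide came to at most 0.0262 CPM of the library total. CPM values below were also scaled by edgeR's TMM factors, which adjust for a few genes taking up much of a library. *Mettl14* itself had 2050 and 2154 counts in shCTR A and B and 546 and 568 counts in shMettl14 A and B. The fitted log2 fold change of *Mettl14* was -2.08 ± 0.25 (SE), with an adjusted p of 1 in edgeR without a block and of 3.05e-07 in DESeq2.

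Fibronectin is a large secreted dimer that cells assemble into fibrils through integrins, and this fibrillar network carries growth factors, collagens and other matrix proteins. Matricellular proteins are secreted into the matrix without being its structural scaffold. They act by binding cell-surface receptors, growth factors and proteases. Tenascin-C, thrombospondins, SPARC and periostin are known in the vessel wall for their appearance in developing, injured and remodeling arteries, where smooth muscle cells make much of the matrix. METTL14 and METTL3 form the core of the complex that writes N6-methyladenosine (m6A) into mRNA, and GGACT is the best known DNA spelling of the sequence in which it does so.

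The 8 genes spanned more than 4 orders of magnitude when their normalized CPM were divided by the merged length of their exons. *Fn1*, which encodes fibronectin, had the highest level, with a mean over the 4 libraries of 3727 CPM per kb ± 1552 (SD, n = 4) and a range from 2372 to 5821. *Thbs1*, which encodes thrombospondin-1, an activator of latent TGF-β and ligand of CD47, came next at 1994 ± 247 CPM per kb. *Sparc*, which encodes the collagen-binding glycoprotein osteonectin, followed at 1143 ± 108. The ranges of these 3 genes did not overlap with each other. After a wide gap came *Tnc* (tenascin-C) at 34.8 ± 27.7, *Thbs2* (thrombospondin-2) at 20.0 ± 2.31 and *Postn* (periostin) at 15.5 ± 4.77 CPM per kb, and each of these neighbors overlapped with the next. *Thbs3* (thrombospondin-3) stood at 2.21 ± 0.327 and *Tgfbi*, which encodes a fasciclin-domain relative of periostin, at 0.240 ± 0.106 CPM per kb, each apart from its neighbors. With the length of the longest coding transcript in place of the merged exons, *Postn* had 42.1 CPM per kb and moved ahead of *Tnc* (38.0) and *Thbs2* (23.8), since 3205 of its 8702 exon bases belong to that transcript. The range of *Postn* (26.2 to 57.9) then still overlapped with those of *Tnc* (11.4 to 71.9) and *Thbs2* (21.1 to 26.4). With this length the ranges of *Thbs1* (1866 to 2442) and *Sparc* (1728 to 2129) overlapped as well.

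**Figure D1:**
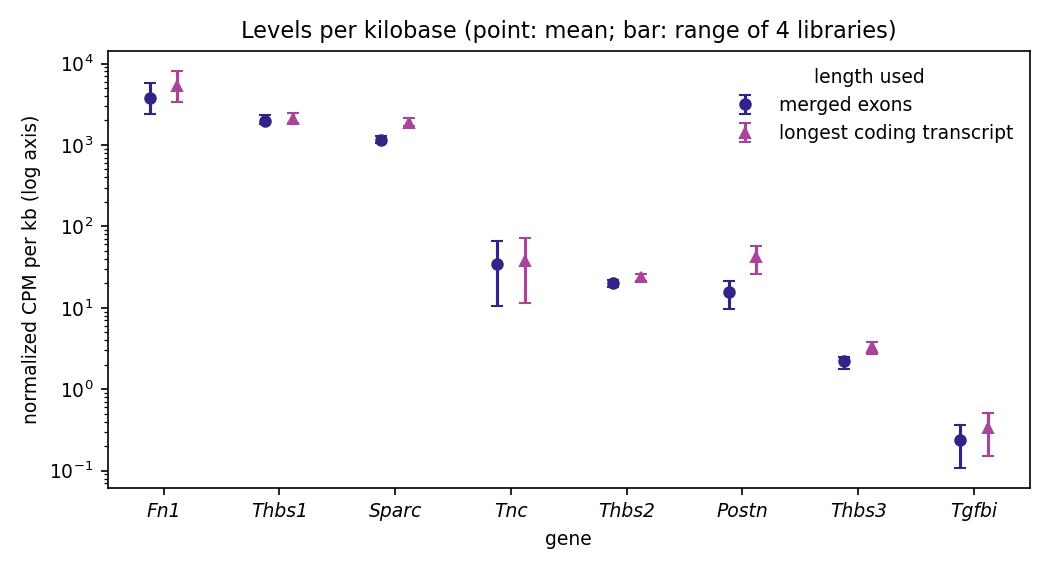
Normalized CPM per kilobase of each gene on a log axis, as the mean (point) and the range (bar) of the 4 libraries, with merged exons (circles) or the longest coding transcript (triangles) as the length. *Fn1*, *Thbs1* and *Sparc* lie at 1049 CPM per kb or more in every library, whereas the other 5 genes lie at 71.9 or less.

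By counts, *Fn1* ranked 1 in every library, *Thbs1* ranked 2, 3, 2 and 2 and *Sparc* ranked 10, 11, 8 and 7 in shCTR A, shCTR B, shMettl14 A and shMettl14 B. At the other end, *Tgfbi* ranked between 12394 and 14394. Together the 8 genes took 4.30% of all counts in shCTR A, 8.23% in shCTR B, 5.05% in shMettl14 A and 6.52% in shMettl14 B. The sum was therefore larger in both B libraries than in both A libraries, and most of it was *Fn1*, at 2.72%, 6.43%, 3.33% and 4.83% in the same order. The next most abundant genes did not share this order, with *Thbs1* at 1.07%, 1.35%, 1.23% and 1.19% and *Sparc* at 0.480%, 0.375%, 0.451% and 0.427%.

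*Fn1* lies on the minus strand of chromosome 1 (GRCm38, 71585520 to 71653200), *Tnc* on the minus strand of chromosome 4 (63959785 to 64047015), *Thbs1* on the plus strand of chromosome 2 (118111876 to 118127133), *Thbs2* on the minus strand of chromosome 17 (14665500 to 14694235) and *Sparc* on the minus strand of chromosome 11 (55394500 to 55423183). *Thbs3* (89215180 to 89226837) and *Postn* (54361109 to 54391037) lie on the plus strand of chromosome 3, and *Tgfbi* lies on the plus strand of chromosome 13 (56609523 to 56639562). Exons of genes on the opposite strand covered 2.5% of the exon bases of *Fn1*, 2.26% of *Tnc*, 3.42% of *Thbs1* and 6.59% of *Thbs3*, the last from *Mtx1*. The libraries were prepared with a stranded kit, but the strand setting of the counting is not given in the sources used here, so that a share of these reads may belong to the neighbor.

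Because METTL14 serves m6A writing, copies of GGACT were counted in the coding sequence of the longest coding isoform of each gene. *Thbs3* held 8 copies in 2868 coding bases (2.79 per kb, a higher density than 92.5% of 14367 tested genes with a coding sequence) and *Tnc* held 16 in 6330 bases (2.53 per kb, higher than 89.7%). *Thbs1* had 7 copies, *Fn1* 6, *Thbs2* 5, *Tgfbi* 3, and *Sparc* and *Postn* 1 each. *Postn* thus had 0.398 copies per kb, against a median of 1.07 over all 14367 genes, of which 76.8% held at least 1 copy. A copy is a match of letters and was not measured as an m6A site. The last copy before the stop codon is shown in capitals with its flanks in the spliced coding sequence for *Fn1* as the most abundant gene, *Thbs1* as the most abundant thrombospondin, *Thbs3* as the densest and *Postn* as the sparsest. These copies lie at chr1:71602314-71602318 (minus strand, exon 34 of 46), chr2:118123290-118123294 (plus strand, exon 19 of 22), chr3:89226539-89226543 (plus strand, exon 23 of 23) and chr3:54369161-54369165 (plus strand, exon 5 of 23). From copy to end of the coding sequence there were 1816 bases in *Fn1*, 488 in *Thbs1*, 38 in *Thbs3* and 2050 in *Postn*. Untranslated regions were not searched.
Fn1: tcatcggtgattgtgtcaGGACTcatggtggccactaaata
Thbs1: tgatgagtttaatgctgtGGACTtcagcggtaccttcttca
Thbs3: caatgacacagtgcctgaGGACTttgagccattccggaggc
Postn: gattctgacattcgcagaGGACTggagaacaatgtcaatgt

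RefSeq promoter entries (GRCm38.p6) within 50 bases of the annotated start were found for 4 of the 8 genes, namely *Tnc*, *Thbs2*, *Thbs3* and *Postn*. The 250 bases before the start are shown for *Tnc*, which differed most between libraries, and for *Postn*, which had the largest fitted difference between the hairpins. Capitals mark matches, on either strand, to the TATA box core (TATAAA), the CCAAT box, the Sp1-type GC box (GGGCGG), the AP-1 motif (TGANTCA) or the TEAD motif (CATTCC), all chosen after these sequences had been seen. No match overlapped another in the printed windows. TATAAA occurred in *Tnc*, *Thbs2* and *Postn* and in 12.4% of 32851 RefSeq promoters of this length. GGGCGG occurred in *Tnc* and *Thbs3* and in 32.7% of all promoters, CCAAT in *Thbs2* and *Thbs3* and in 33.8%. TGANTCA (6.75% of all promoters) and CATTCC (12.6%) occurred in none of the 4 windows. The *Tnc* window is chr4:64047016-64047265 on the minus strand and the *Postn* window chr3:54360857-54361106 on the plus strand.
Tnc: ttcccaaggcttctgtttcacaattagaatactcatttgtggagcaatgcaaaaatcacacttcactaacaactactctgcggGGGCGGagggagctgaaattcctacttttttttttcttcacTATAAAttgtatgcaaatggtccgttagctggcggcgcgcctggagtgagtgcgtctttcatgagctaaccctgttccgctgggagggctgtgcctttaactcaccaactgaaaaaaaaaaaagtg
Postn: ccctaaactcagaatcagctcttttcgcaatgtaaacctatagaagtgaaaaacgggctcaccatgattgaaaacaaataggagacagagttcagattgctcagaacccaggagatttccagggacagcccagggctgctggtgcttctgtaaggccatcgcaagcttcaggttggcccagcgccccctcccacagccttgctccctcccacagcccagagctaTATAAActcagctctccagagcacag

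The question of the design was whether loss of *Mettl14* changed the mRNA of these genes. None of the 8 genes passed an adjusted p of 0.05 in edgeR's quasi-likelihood test, where 0% of all 18916 tested genes did, and none had an unadjusted p under 0.05, where 315 genes (1.67%) did. Of those 315 genes 124 were higher in shMettl14, and with library totals as the only scaling 234 of 337 were. DESeq2 called 5 genes, *Mettl14* among them, and none of the 8. Without a block, edgeR did not call *Mettl14* itself, whose log2 fold change was -2.08, so that not passing there does not show a gene to be unchanged. None of the 8 had both shMettl14 libraries above both shCTR libraries, where 14.7% of all tested genes had, and none had both below, where 13.3% had. The fitted log2 fold change was below 0 for 6 of the 8 genes with a median of -0.09, beside a median of 0.01 over all tested genes. With library totals as the only scaling, which moved the median of all genes by 0.11, it was below 0 for 4 of the 8.

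**Figure D2:**
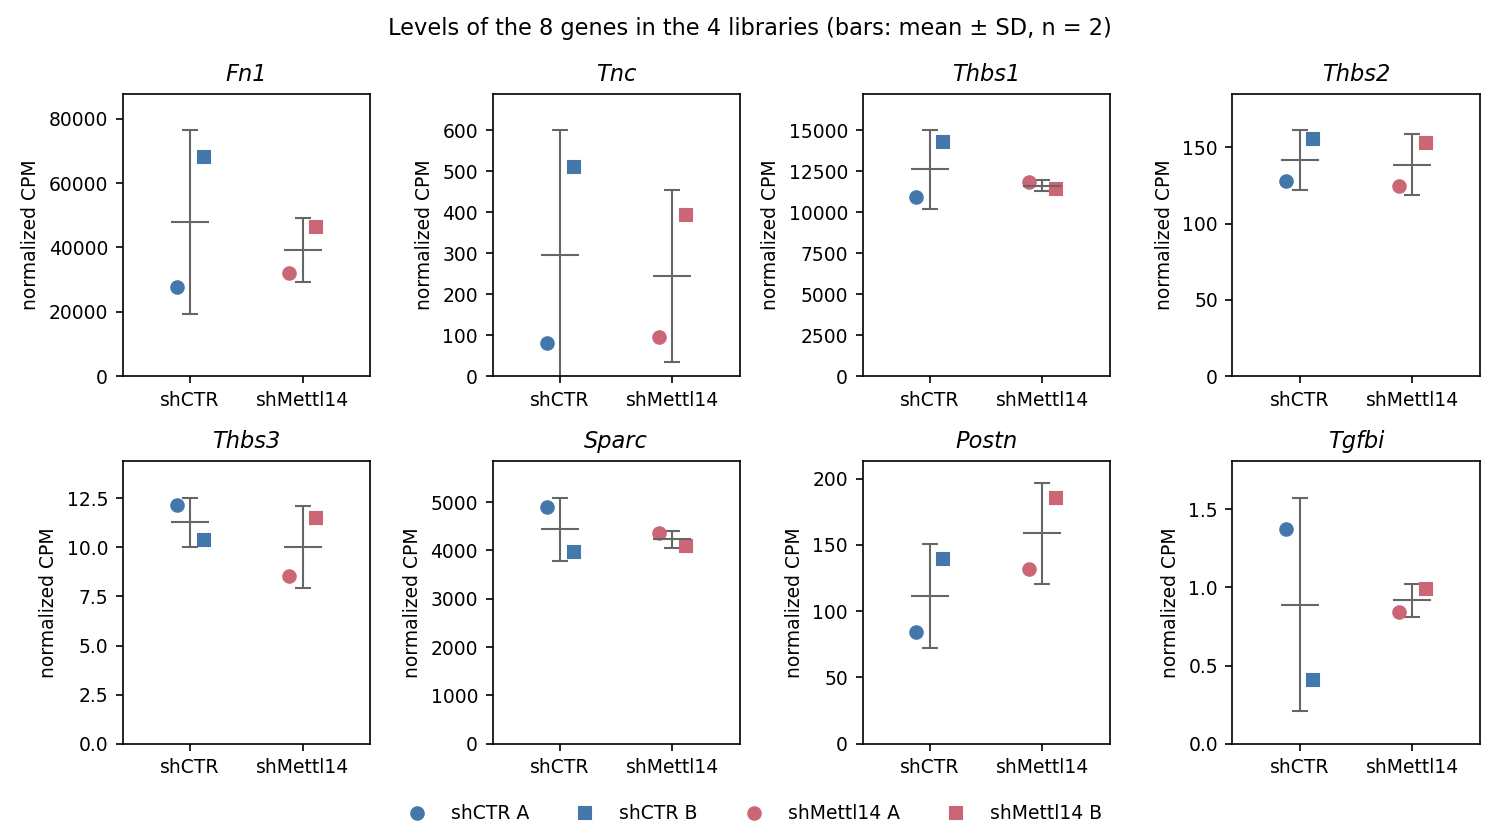
Normalized CPM of each gene in shCTR (blue) and shMettl14 (red), with letter A as circles, letter B as squares and the mean ± SD of 2 libraries as gray bars, on axes that start at 0; the lower end of the SD bar of *Tnc* in shCTR lies below 0 and is cut off. The groups overlap in all 8 panels, and *Fn1* and *Tnc* are spread far apart within each group.

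*Fn1* had 27723 normalized CPM in shCTR A, 68022 in shCTR B, 32168 in shMettl14 A and 46301 in shMettl14 B. The shMettl14 libraries lay between the shCTR libraries. The group means were 47872 ± 28496 CPM in shCTR and 39234 ± 9994 in shMettl14 (SD, n = 2), and the fitted log2 fold change was -0.29 ± 0.47 (SE; adjusted p = 1). Within letter A the log2 ratio of shMettl14 to shCTR was 0.21 and within letter B it was -0.55. The direction rested on shCTR B, the library with the highest level, without which the fitted value was 0.50.

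The thrombospondins, which are secreted glycoproteins, gave small differences. *Thbs1* had 10911 and 14281 CPM in shCTR A and B and 11857 and 11379.6 in shMettl14 A and B, a fitted log2 fold change of -0.12 ± 0.21 (SE; adjusted p = 1) that became 0.09 without shCTR B. The shMettl14 libraries again lay between the controls. *Thbs2* was the steadiest of the 8 genes between the hairpins, with 128 and 156 CPM in shCTR and 125 and 153 in shMettl14 A and B. Its log2 ratios were -0.04 within letter A and -0.03 within letter B, and the fitted value was -0.03 ± 0.22 (SE; adjusted p = 1), but 0.11 both without shCTR B and without shMettl14 A. *Thbs3* had 12.2 and 10.4 CPM in shCTR and 8.55 and 11.5 in shMettl14, with a log2 ratio of -0.51 within A and 0.15 within B. The lowest of these libraries was shMettl14 A, and without it the fitted value moved from -0.17 ± 0.28 (SE; adjusted p = 1) to 0.03.

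*Tnc* encodes tenascin-C, a hexameric adhesion-modulating protein, and had 81.1 CPM in shCTR A, 511 in shCTR B, 96.6 in shMettl14 A and 393 in shMettl14 B. Both B libraries were far above both A libraries under either hairpin. The fitted log2 fold change of -0.27 ± 1.02 (SE; adjusted p = 1) had the widest error of the 8 genes, and its direction turned without shCTR B (1.59) and without shMettl14 A (0.42). *Sparc* had 4896 and 3974 CPM in shCTR and 4357 and 4097 in shMettl14 A and B, with a fitted value of -0.07 ± 0.20 (SE; adjusted p = 1) and of 0.09 without shCTR A. Its 4 libraries stayed within a narrow span, and both shMettl14 values lay between the controls.

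*Postn* encodes periostin, a fasciclin-domain protein that binds integrins and helps collagen cross-linking. It had 84.0 CPM in shCTR A, 139 in shCTR B, 132 in shMettl14 A and 185 in shMettl14 B. It was the only gene of the 8 that was higher in shMettl14 within both letters, with log2 ratios of 0.65 for letter A and 0.42 for letter B, where 30.1% of all tested genes were higher within both. The groups still overlapped, since shMettl14 A lay below shCTR B. The fitted log2 fold change was 0.51 ± 0.33 (SE), a 1.42-fold higher level, with an unadjusted p of 0.187 and an adjusted p of 1. It stayed above 0 whichever library was left out, between 0.19 without shCTR A and 0.91 without shCTR B. *Tgfbi* gave only 156, 44, 100 and 129 counts, or 1.37, 0.407, 0.842 and 0.992 CPM, in the same order. Its lowest and its highest library were both shCTR, and the fitted value of 0.04 ± 0.67 (SE; adjusted p = 1) turned to -0.59 without shCTR B and to -0.08 without shMettl14 B.

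**Figure D3:**
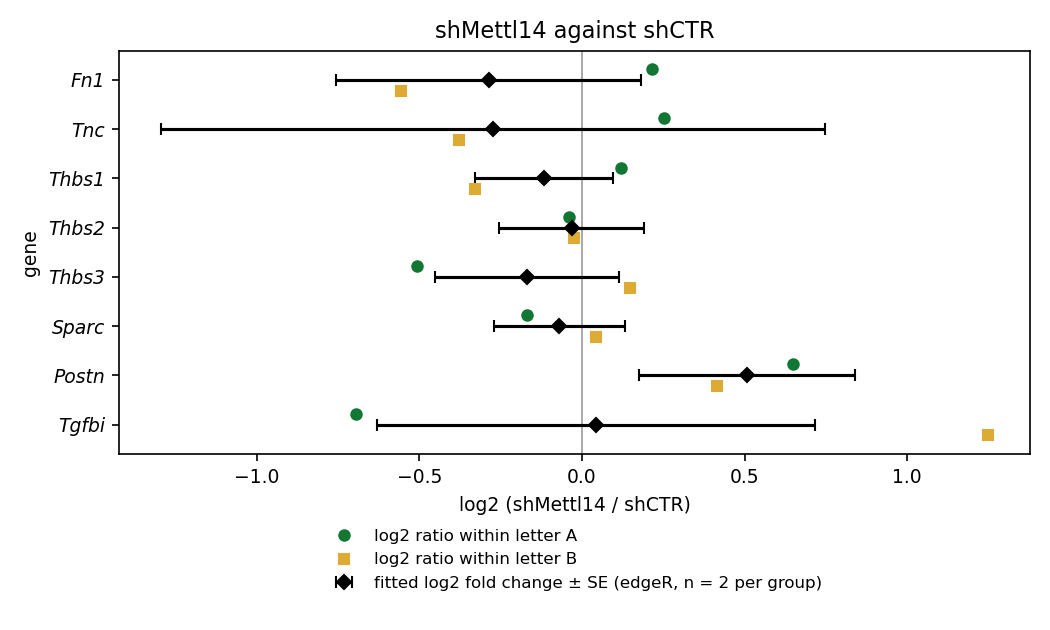
Log2 ratio of shMettl14 to shCTR for each gene, as the fitted log2 fold change with its SE (black diamonds) and as the ratio within letter A (green circles) and within letter B (yellow squares). The ratios of letters A and B lie on opposite sides of 0 for 6 genes, and *Postn* alone lies above 0 for both.

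Only *Thbs2* was lower in shMettl14 within both letters, by less than its SE, where 27.7% of all tested genes were. The other 6 genes had opposite signs within A and within B. Over the 8 genes the median absolute log2 ratio between the hairpins was 0.29, beside 0.29 over all tested genes, and between the letters it was 0.41, beside 0.42 over all tested genes.

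Since a letter is given as a replicate label and is not stated to mark a shared culture, its values are given as a description. Both B libraries were above both A libraries for *Fn1*, *Tnc*, *Thbs2* and *Postn*, 4 of the 8 genes, where 27.2% of all tested genes were. *Sparc* alone was lower in both B libraries, where 28.8% were. *Tnc* was 6.30-fold higher in B than in A within shCTR and 4.07-fold higher within shMettl14, and its mean absolute log2 difference between the letters was larger than that of 96.9% of the tested genes. *Fn1* was 2.45-fold higher in B within shCTR and 1.44-fold higher within shMettl14, more than 77.9% of the tested genes. *Postn* differed by 1.66-fold and 1.41-fold, and *Thbs2* by 1.21-fold and 1.23-fold. *Tgfbi*, at its low counts, was at 0.297-fold in B within shCTR and at 1.18-fold within shMettl14.

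**Figure D4:**
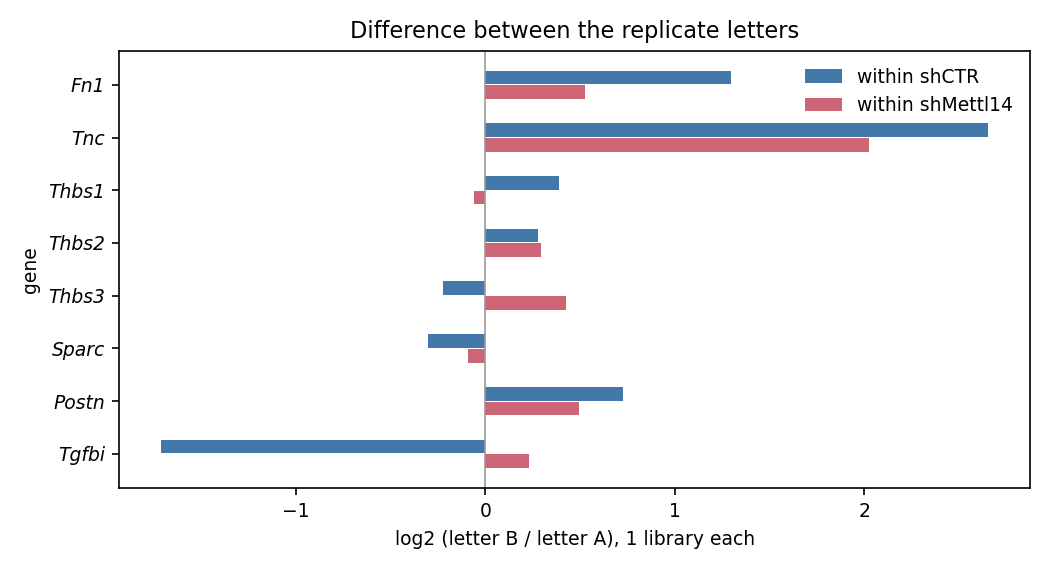
Log2 ratio of the letter B library to the letter A library within shCTR (blue) and within shMettl14 (red), with 1 library on each side of a ratio and no error bar. *Tnc* has the longest bars to the right under both hairpins, at 2.65 and 2.02, and *Thbs1*, *Thbs3* and *Tgfbi* point in opposite directions under shCTR and shMettl14.

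The profile of *Fn1* over the 4 libraries was compared with that of 1990 other genes with a mean of at least 100 CPM. The nearest by Euclidean distance of centered log2 CPM were *mt-Nd5* and *mt-Nd2*, which encode subunits of mitochondrial complex I, *Cep170*, a centrosomal protein gene, *Dcn*, which encodes the matrix proteoglycan decorin, and *Fmr1*, an RNA-binding protein gene, at distances from 0.13 to 0.18. *Dcn*, which is also among the fibroblast markers below, had 68.2, 159.7, 72.3 and 120.2 CPM in shCTR A, shCTR B, shMettl14 A and shMettl14 B. With 4 libraries such closeness describes these libraries only.

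Of the 7 endothelial marker genes, *Emcn*, *Cdh5*, *Pecam1* and *Tie1* had more than 100 CPM in every library and *Kdr*, *Tek* and *Vwf* at most 18.9. The sum of the 7 differed between the letters in the same direction as *Fn1* and *Tnc*, and so did the sum of the fibroblast markers given below. The summed level of the 7 endothelial markers was 1832 CPM in shCTR A, 3912 in shCTR B, 1721 in shMettl14 A and 2408 in shMettl14 B. *Emcn*, a sialomucin of endothelial cells and the most abundant of them, had 648, 2099, 484 and 1077 CPM. Both B libraries were above both A libraries for 6 of the 7, while *Tie1* was lower in both B libraries, beside 27.2% and 28.8% of all tested genes. Between the hairpins, no endothelial marker reached an unadjusted p of 0.05, and *Emcn* had the largest fitted difference, -0.82 ± 0.66 (SE). The part of endothelial cells in the levels of *Fn1* and *Tnc* was not tested, and in bulk RNA fewer cells of a type cannot be told apart from less RNA per cell.

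**Figure D5:**
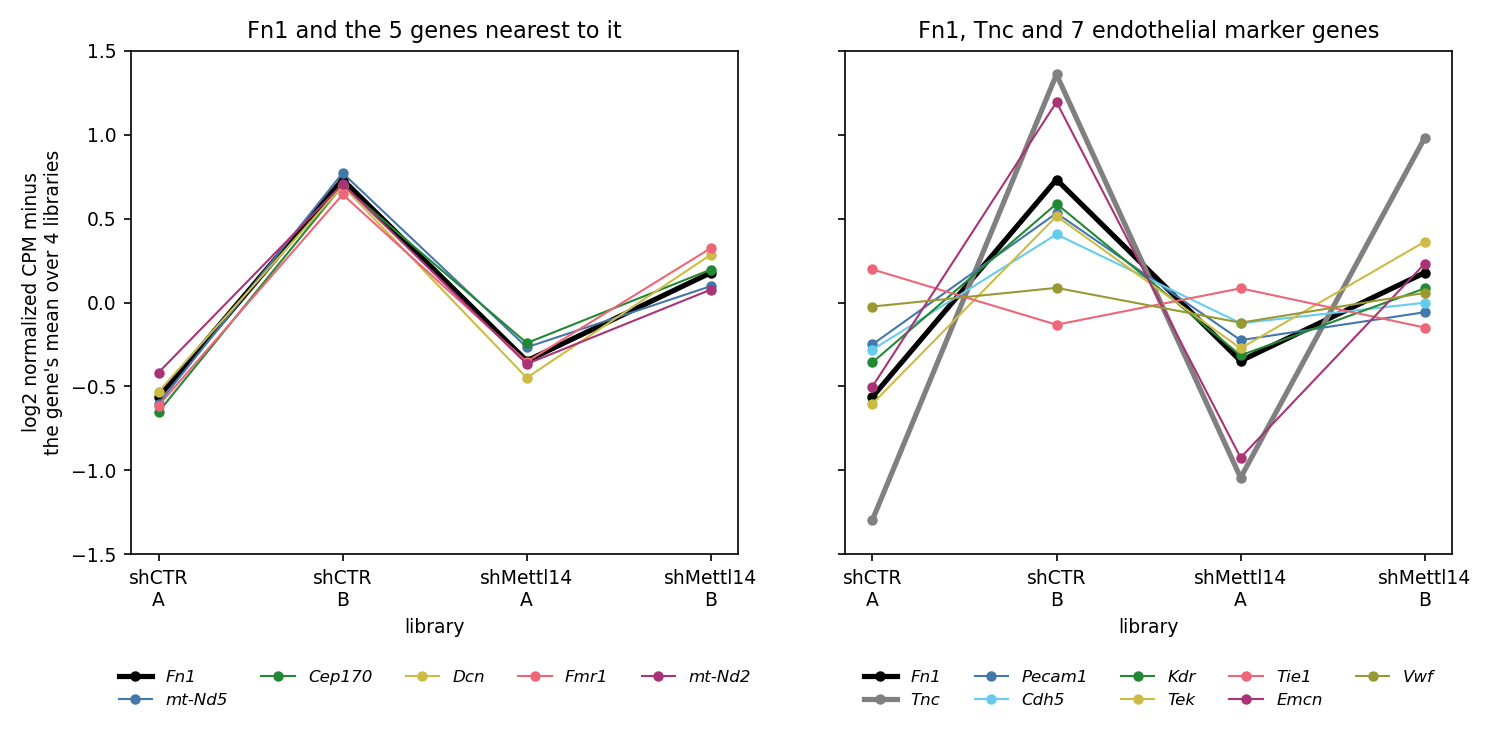
Log2 normalized CPM minus each gene's own mean over the 4 libraries, for *Fn1* and the 5 genes nearest to it (left) and for *Fn1*, *Tnc* and the 7 endothelial markers (right); lines only join the points of a gene. *Fn1* is highest in shCTR B and lowest in shCTR A, and *Emcn* follows *Tnc* in being higher in both B libraries.

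Smooth muscle genes were present in every library, at lower summed levels in both shMettl14 libraries. The 8 smooth muscle markers summed to 6797 and 5771 CPM in shCTR A and B and to 4441 and 4809.9 in shMettl14 A and B. All 8 had a fitted value below 0, or 7 of the 8 under upper-quartile scaling and under library totals, beside 9230 of all 18916 tested genes in the main fit. Both shMettl14 libraries were below both shCTR libraries for 3 of the 8, *Acta2*, *Tagln* and *Des*, beside 13.3% of all tested genes. The sums rest mostly on *Acta2* and on *Tagln*, which had 2333 and 2449 CPM in shCTR A and B and 1616 and 2253 in shMettl14 A and B. *Acta2*, which encodes smooth muscle actin, had 3546, 2798, 2171 and 2072 CPM and a log2 fold change of -0.58 ± 0.21 (SE; unadjusted p = 0.038, adjusted p = 1). The 8 fibroblast markers summed to 887 and 1043 CPM in shCTR A and B and to 901 and 1023 in shMettl14 A and B. Both B sums were thus above both A sums. Of the 8, 2 were higher in both B libraries, *Dcn* among them, and 2 were lower, beside 27.2% and 28.8% of all tested genes. Between the hairpins 4 were higher and 4 lower. *Cd34* was the most abundant and *Serpinf1* the most different of those with a mean of at least 10 CPM, at -0.53 ± 0.21 (SE). The 7 leukocyte markers summed to between 10.98 and 14.7 CPM, with *Lyz2*, a lysozyme gene, the most abundant at 4.15 to 5.50 CPM, and *Adgre1*, *Itgam* and *Cd3e* at 0 counts in at least 1 library. Of the 7 striated muscle markers 6 were tested, and 3 had an unadjusted p under 0.05 in edgeR without a block, beside 1.67% of all tested genes. The 7 striated muscle markers summed to 33.4 CPM in shCTR A and to between 11.9 and 19.8 in the others. *Acta1*, the most abundant of them, differed by -0.13 ± 0.34 (SE), *Actn3* by -1.62 ± 0.39 (SE; unadjusted p = 0.00927), *Ckm* (unadjusted p = 0.0257) had 1.37 CPM in shCTR A and at most 0.120 CPM elsewhere, and *Myh4* (unadjusted p = 0.0128) had 5.50 CPM in shCTR A, 0.278 in shCTR B and 0 counts in both shMettl14 libraries. The summed levels of the fibroblast and the striated muscle markers overlapped between the hairpins. Those of the smooth muscle markers, made up mostly of *Acta2* and *Tagln*, were lower in both shMettl14 libraries. The leukocyte sums were 14.7 and 11.7 CPM in shCTR A and B and 11.5 and 10.98 in shMettl14 A and B. The hairpins were thus only narrowly apart, and these sums were not compared under other scaling. Among the 4 leukocyte markers tested, 1 had both shMettl14 libraries below both shCTR libraries, beside 13.3% of all tested genes. No marker passed an adjusted p of 0.05 in edgeR without a block, and *Myh4* did with the replicate block. The part of these cell types in the values of the 8 genes was not tested.

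The other matricellular families, among them the CCN proteins, SPARC relatives and osteopontin, had 16 of 20 genes tested. Of these, 6 were higher and 10 lower in shMettl14, and the median of their log2 fold changes was -0.10, whereas with library totals only 9 were higher and 7 lower. None passed an adjusted p of 0.05 and 1 of the 16 had an unadjusted p under 0.05, beside 1.67% of all tested genes. That gene was *Ctgf*, which encodes the CCN protein connective tissue growth factor and is the most abundant of the list. It had 3427 and 3431 CPM in shCTR A and B and 2307 and 2103 in shMettl14 A and B. Its log2 fold change was -0.64 ± 0.18 (SE; unadjusted p = 0.0167, adjusted p = 1). *Spp1*, which encodes osteopontin, had the largest difference among genes with a mean of at least 10 CPM, with 34.6 and 29.1 CPM in shCTR and 23.1 and 12.01 in shMettl14, or -0.86 ± 0.37 (SE; adjusted p = 1). Both shMettl14 libraries were below both shCTR libraries for 3 of the 16 genes, *Ctgf*, *Spp1* and *Cyr61*, and above both for 1, *Fstl1*, beside 13.3% and 14.7% of all tested genes.

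Receptors for these proteins were all tested, with 2 of 14 higher and 12 lower, a median of -0.16, no unadjusted p under 0.05, and 6 higher and 8 lower with library totals only. *Itgb1*, the β subunit shared by most fibronectin-binding integrins, was the most abundant and had 2547 and 3281 CPM in shCTR A and B and 2282 and 2820.5 in shMettl14. The groups overlapped. *Sdc4*, a fibronectin co-receptor, had 243 and 151 CPM in shCTR and 140.0 and 117 in shMettl14, a log2 fold change of -0.62 ± 0.30 (SE; unadjusted p = 0.0918, adjusted p = 1).

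Among 13 partners and processing enzymes of the matrix, 4 were higher and 9 lower with a median of -0.09, or 7 higher and 6 lower with library totals only. In edgeR without a block, 2 of the 13 had an unadjusted p under 0.05, beside 1.67% of all tested genes. *Col1a2*, a chain of type I collagen and the most abundant by the mean of the 4 libraries, had 2959 and 2451 CPM in shCTR A and B and 2734 and 3056 in shMettl14 A and B. *Col3a1*, which encodes the type III collagen chain, had 620.0 and 479.6 CPM in shCTR and 821 and 955 in shMettl14, a log2 fold change of 0.69 ± 0.22 (SE; unadjusted p = 0.0276, adjusted p = 1). *Tgfb1*, which encodes the growth factor TGF-β1, had 64.8 and 60.9 CPM in shCTR and 41.0 and 39.6 in shMettl14, a log2 fold change of -0.64 ± 0.19 (SE; unadjusted p = 0.0184, adjusted p = 1). Both shMettl14 libraries were above both shCTR libraries for 2 of the 13 genes, *Col3a1* and *Fbn1*, and below both for 5, *Col1a1*, *Tgm2*, *Tgfb1*, *Tgfb2* and *Tgfb3*, beside 14.7% and 13.3% of all tested genes.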

How the data were processed

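Poly-A RNA of 4 libraries, 2 with shCTR and 2 with shMettl14, was sequenced as read pairs. Per the study's methods and the submitters' processing notes, STAR aligned the reads to mm10 and featureCounts assigned them to genes. The authors deposited the resulting raw counts, which carry no normalization. The versions of STAR and featureCounts, the strand setting and the treatment of multimapping reads are not given in the sources used here. DESeq2 is named by the authors for differential expression, without a model formula.

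Groups were compared with edgeR 4.0.16 in R 4.3.3, using TMM factors, filterByExpr (18916 genes), a robust quasi-likelihood fit without a block and Benjamini-Hochberg adjustment over all tested genes. Each SE was derived from the log2 fold change and its F statistic. Log2 CPM used a prior count of 2. Exact permutation tests were not used, since 2 libraries against 2 cannot go below p = 0.333. Intervals and limits of counts cover counting error only. Genes named beside the 8 were, in each list, those with an unadjusted p under 0.05 or called by any fit, the most abundant, and the most different with at least 10 CPM. In addition, the 5 genes nearest to *Fn1* were named. Other genes named for not overlapping between the hairpins, and the endothelial markers named by level, were chosen after their values had been seen. The 8 genes and all lists were chosen with earlier results of these data known. Alternatives were RLE and upper-quartile factors, library totals only, TMM without *Fn1* in the totals, no filter beyond 1 count, at least 10 counts in every library, DESeq2 1.42.0, a replicate block, each library left out, and the longest coding transcript as length. Annotation came from GENCODE M21 (GRCm38) and promoters from RefSeq.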

Additional observations from a re-analysis of the deposited data

Results flagged for a closer look

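For 6 of the 8 genes the single ratio of shMettl14 to shCTR within letter A and that within letter B lay on opposite sides of 0. With 1 library on each side of a ratio, the difference between the letters was not tested. The log2 ratio within B minus that within A was -0.77 for *Fn1*, -0.63 for *Tnc* and -0.45 for *Thbs1*, which were higher in shMettl14 within A and lower within B. It was 0.65 for *Thbs3*, 0.21 for *Sparc* and 1.94 for *Tgfbi*, which were lower in shMettl14 within A and higher within B. *Tgfbi* rests on 44 to 156 counts per library.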

How the results depend on the processing

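No gene of the 8 passed an adjusted p of 0.05 under any alternative. Over all genes, edgeR called 0, DESeq2 5 and the replicate block 9, with 4 genes called by both of these, and leaving out 1 library gave from 0 to 1. *Mettl14* passed with DESeq2 (-2.09) and with the replicate block (-2.08), and stayed between -2.15 and -2.01 with 1 library left out. With the replicate block, under which 1941 of 18916 genes had an unadjusted p under 0.05 against 315 without it, the log2 fold change was 0.53 for *Postn* (unadjusted p = 0.00644, adjusted p = 0.318), -0.06 ± 0.18 (SE) for *Tnc*, -0.17 for *Fn1* and 0.26 for *Tgfbi*. The block called *Myh4*, a striated muscle marker. Deviations of same-letter libraries from their group means correlated at 0.578, but 2 pairs that share only a letter are not stated to be paired. With library totals only, *Thbs2* came to 0.0816 and *Sparc* to 0.0385, or -0.0379 and -0.0811 relative to the median of all genes. The direction turned for 7 of the 8 genes when 1 library was left out. The fitted values ranged from -0.79 to 0.50 for *Fn1*, from -1.61 to 1.59 for *Tnc*, from -0.293 to 0.0871 for *Thbs1*, from -0.18 to 0.11 for *Thbs2*, from -0.394 to 0.0304 for *Thbs3*, from -0.216 to 0.0933 for *Sparc* and from -0.59 to 1.17 for *Tgfbi* (-0.0800 without shMettl14 B). *Postn* ranged from 0.19 to 0.91. *Fn1* had an unadjusted p of 0.040 without shCTR A (adjusted p = 0.690), as 1399 of 20278 genes had one under 0.05, and *Postn* 0.0223 without shCTR B (adjusted p = 0.942), as 828 of 20318 had. In these fits the lone library of a group is assumed to vary like the other group. With the longest coding transcript as length, 5 of the 8 genes kept their rank.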
